A study of Homo sapiens with 4 samples.

Results

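Glycolysis converts glucose to pyruvate, and the genes described here are its glucose transporters, enzymes and regulators together with a group of genes that cells switch on in low oxygen. They were chosen by symbol, with earlier results of these data known. The 35 named genes, 23 of them transporters, enzymes or regulators of glycolysis and 12 hypoxia targets, were looked up through GENCODE 29 in a table of 28274 genes. All 35 had a row. The table comes from RNA sequencing of total RNA from the human cell line J-gammal in 4 libraries. The 2 controls have the genotype "none", a source name without treatment and titles marked NC, an abbreviation the labels leave unexplained. The other 2 libraries have the genotype FYB1 knockdown and titles with sh-FYB1, FYB1 being an adaptor protein of T cell receptor and integrin signalling. The labels do not tell whether the controls received a construct or whether both knockdown libraries received the same one. Nor do they tell whether libraries of 1 group are separate cultures, so the p-values measure only library-to-library spread, possibly technical. The name resembles that of J.gamma1, a Jurkat T cell leukaemia line without phospholipase C gamma 1, but the labels do not say so. They name no cell type either, and all 12 of 12 T cell markers examined had a mean over 1 FPKM.

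Glucose enters through the transporters SLC2A1 and SLC2A3, is phosphorylated by hexokinases and split into triose phosphates in the upper part of the pathway, and yields ATP and pyruvate in the lower part, after which lactate dehydrogenase can reduce pyruvate to lactate. In low oxygen the prolyl hydroxylases of the EGLN family stop marking the alpha subunits of hypoxia-inducible factor (HIF) for destruction, and HIF then raises many of the glycolysis genes along with genes for blood vessel growth, mitophagy, pH control and collagen hydroxylation. Proliferating T cells and T cell leukaemia lines also use glycolysis heavily when oxygen is present, in part through MYC.

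HIF binds DNA at a short core, ACGTG or GCGTG, and some promoters are shown here with these cores marked. Whether the cores have a part in the differences was not tested. The windows below are the RefSeq promoters (GRCh38.p14, 250 bases before to 50 bases after the start, 300 bases in all, written 5′ to 3′ on the strand of the gene) of the 4 genes among the 35 that fell with the lowest log2 fold changes and of the single gene that rose. Capitals mark every ACGTG or GCGTG on either strand. Their places are chr1:42958819-42959118 on the minus strand for SLC2A1, chr4:185396591-185396890 on the plus strand for ANKRD37, chr11:10304823-10305122 on the plus strand for ADM, chr3:48556754-48557053 on the minus strand for PFKFB4 and chr11:74398384-74398683 on the minus strand for PGM2L1.
SLC2A1: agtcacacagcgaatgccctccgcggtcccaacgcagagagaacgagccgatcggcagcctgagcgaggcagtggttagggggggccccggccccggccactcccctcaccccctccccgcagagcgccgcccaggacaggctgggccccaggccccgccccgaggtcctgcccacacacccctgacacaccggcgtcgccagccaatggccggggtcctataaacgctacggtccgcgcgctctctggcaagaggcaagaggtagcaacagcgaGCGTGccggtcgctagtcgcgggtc
ANKRD37: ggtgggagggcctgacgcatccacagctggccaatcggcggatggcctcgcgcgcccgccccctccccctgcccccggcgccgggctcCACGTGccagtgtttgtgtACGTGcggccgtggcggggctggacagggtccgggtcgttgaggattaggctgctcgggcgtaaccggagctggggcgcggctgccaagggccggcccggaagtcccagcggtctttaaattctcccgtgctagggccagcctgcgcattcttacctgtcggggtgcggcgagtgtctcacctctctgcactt
ADM: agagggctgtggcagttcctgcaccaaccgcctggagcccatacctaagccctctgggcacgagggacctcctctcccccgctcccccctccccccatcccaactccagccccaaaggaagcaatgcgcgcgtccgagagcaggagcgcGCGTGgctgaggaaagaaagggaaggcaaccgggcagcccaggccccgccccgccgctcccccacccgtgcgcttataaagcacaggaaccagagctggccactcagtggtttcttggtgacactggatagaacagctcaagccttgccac
PFKFB4: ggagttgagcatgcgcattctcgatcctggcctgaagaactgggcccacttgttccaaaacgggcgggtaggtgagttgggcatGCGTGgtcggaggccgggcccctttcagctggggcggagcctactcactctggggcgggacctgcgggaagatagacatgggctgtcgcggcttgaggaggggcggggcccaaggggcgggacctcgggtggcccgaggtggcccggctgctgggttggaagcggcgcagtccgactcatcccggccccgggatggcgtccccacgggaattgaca
PGM2L1: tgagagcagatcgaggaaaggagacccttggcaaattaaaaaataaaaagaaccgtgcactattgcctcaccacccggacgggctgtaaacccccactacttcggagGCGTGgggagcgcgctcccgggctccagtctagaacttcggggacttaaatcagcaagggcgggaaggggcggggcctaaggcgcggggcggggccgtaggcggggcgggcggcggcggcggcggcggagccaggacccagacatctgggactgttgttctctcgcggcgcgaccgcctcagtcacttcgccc

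With the first transcribed base as 1 and no base 0, the ANKRD37 window holds cores that begin at -162, -161 and -143. The ones at -162 and -161 overlap, since they are the 2 strands of 1 CACGTG, the palindrome that MYC and other E-box factors also bind. The windows of SLC2A1, ADM, PFKFB4 and PGM2L1 hold 1 GCGTG each, beginning at 26, -101, -166 and -143. RefSeq windows were matched for 31 of the 35 genes, 54 windows in all, and SLC2A3, NDRG1, BNIP3L and VEGFA had none. ACGTG was found in 40.7% of these 54 windows, against 21.4% of all 35116 windows and 26.0% of the 12577 windows of genes tested for expression. GCGTG was found in 40.7%, against 36.5% and 50%, and either core in 68.5%, against 48.4% and 62.1%. CACGTG stood in 14.8%, against 7.3% and 9.8%. In the 19 windows of the 11 genes called lower by limma-voom, a test given below, ACGTG was found in 36.8%, GCGTG in 52.6% and CACGTG in 26.3%. The list holds hypoxia targets by choice, and none of these shares was tested. Several windows can belong to 1 gene (7 each for HK1 and PFKM), so the windows are not independent, and a match is a description of letters.

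The 4 libraries held 16693113 to 20251864 reads, recovered as whole numbers from the deposited FPKM (reads or fragments per kilobase of exon, scaled to a library total). The targeted FYB1 measured 17.6 and 20.1 FPKM in the controls against 6.18 and 4.53 FPKM in knockdown libraries 1 and 2. The groups did not overlap, and FYB1 passed the main test, limma-trend on log2(FPKM + 1), with a log2 fold change of -1.65 ± 0.15 (standard error) and an adjusted p of 0.0398. That call was lost without knockdown library 1 (adjusted p 0.203) or knockdown library 2 (0.0555). Log2 fold changes are given as knockdown minus control throughout, and the added 1 makes them smaller for genes with low values. The main test called 27 of 13172 tested genes (0.205%). A test that weighs each value by its read depth, limma-voom on the recovered reads, called 764 genes lower (5.8%) and 255 higher (1.94%). That balance moved with the scaling: 75% of the limma-voom calls were lower with the authors' totals, 44.9% (207 lower, 254 higher) with read-sum scaling, which takes the summed recovered reads as the total, and 58.3% (299 lower, 214 higher) with quantile normalization. Under read-sum scaling the all-gene median of the log2 fold change went from -0.03 to 0.08, and shifts of the glycolysis and hypoxia genes below should be read beside that of all genes.

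Of the 35 genes, 33 had a mean of at least 1 FPKM and were tested. The mean was lower in the knockdown libraries for 32 of the 33, for 26 with quantile normalization and for 27 under read-sum scaling. Of all tested genes 54.3%, 49.0% and 39.2% had a lower mean under these 3 scalings. The median log2 fold change was -0.43, against -0.03 over all tested genes, and under read-sum scaling it was -0.30, against 0.08. Both knockdown libraries were below both controls in 27 of the 33 genes, compared with 34.6% of all tested genes. In 1 gene, PGM2L1, both were above both controls, compared with 26% of all tested genes. The share of genes lower without overlap rose with level, and the 33 genes stood at a median of 38.3 FPKM, against 6.64 FPKM for all tested genes. Among other genes that share was 16.6% at 1 to 2 FPKM, 57.9% at 20 to 50 FPKM and 75.7% at 200 FPKM and above. None of the 33 passed limma-trend, beside the 0.205% of all genes that did. At an unadjusted p under 0.05 limma-trend counted 18 of the 33, and 3088 of all 13172 genes. The limma-voom test found 11 that fell (33.3% of the 33, beside 5.8% of all tested genes) and 1 that rose (beside 1.94%). The genes that fell were SLC2A1, HK1, HK2, ALDOC, PGAM1, PFKFB3, PFKFB4, BNIP3, ADM, EGLN1 and ANKRD37, and the gene that rose was PGM2L1. That count of 11 depends on the scaling and on single libraries, and the share of all genes called lower moved with it. The count was 4 under read-sum scaling (beside 1.57% of all genes), 5 with quantile normalization (2.27%), 4 without control 1 (0.828%), 4 without control 2 (2.80%), 2 without knockdown library 1 (0.562%) and 23 without knockdown library 2 (19.8%).

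**Figure D1:**
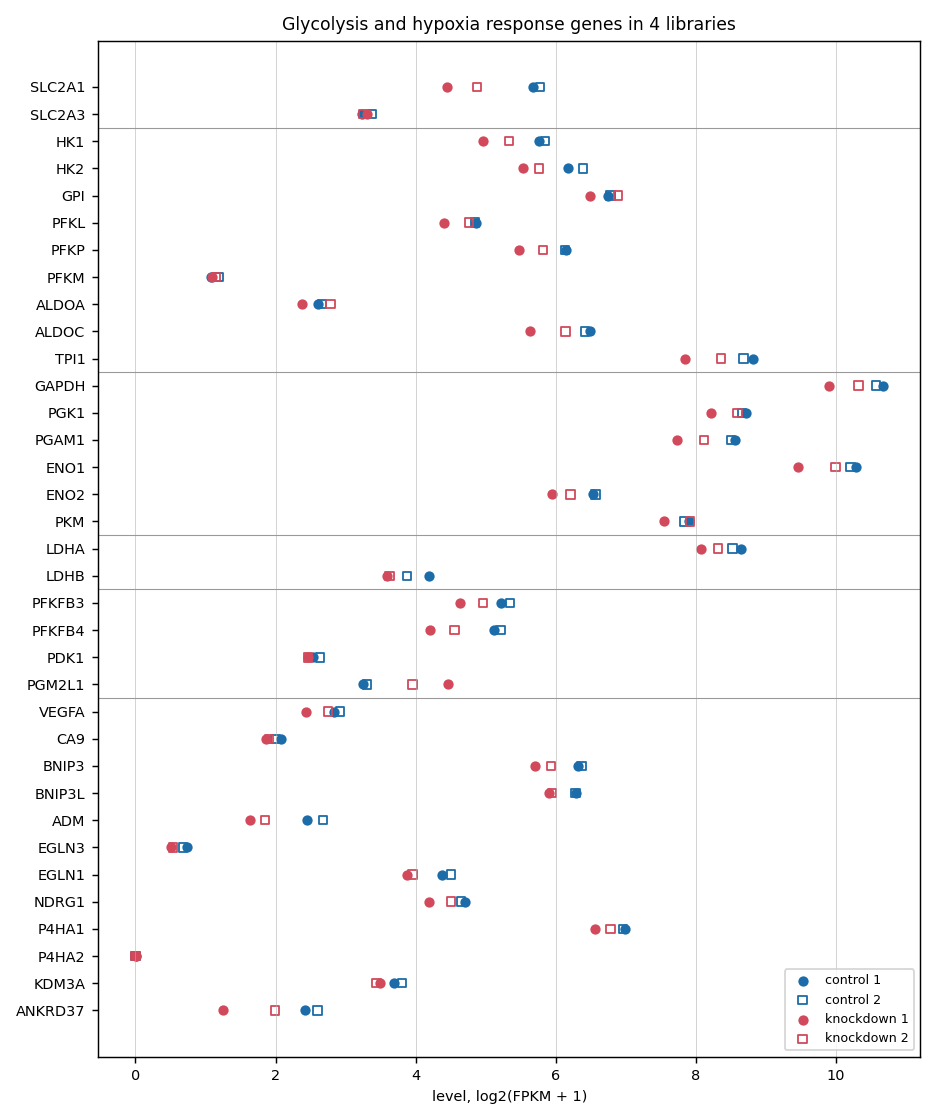
Level of each of the 35 genes in each library as log2(FPKM + 1), with controls in blue, knockdown libraries in red, filled circles for library 1 and open squares for library 2, and grey lines between groups of roles. SLC2A1, PFKFB4, ADM and ANKRD37 show a wide gap between colours, PGM2L1 shows a gap the other way, and knockdown library 1 usually lies further from the controls than knockdown library 2.

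Of the glucose transporters, SLC2A1 fell and SLC2A3 did not pass either test. SLC2A1, the transporter GLUT1 (chromosome 1, 42925375 to 42959176, minus strand, hg38), stood at 50.1 and 53.9 FPKM in the controls and at 20.9 and 28.4 FPKM in the knockdown libraries. Both knockdown values lie well below both controls, and the mean fell by 52.6%. The log2 fold change of -1.06 ± 0.17 was the lowest of the 33 genes, with adjusted p-values of 0.0938 (limma-trend) and 0.00428 (limma-voom). The limma-voom call held under all 9 alternatives run, with adjusted p up to 0.0235, and limma-trend also called it with a replicate block, a minimum of 5 FPKM, a correction for exon length and GC content, or without either control. SLC2A3, the transporter GLUT3, stood at 8.45 and 9.41 FPKM in the controls and at 8.93 and 8.58 FPKM in the knockdown libraries. These values overlap, and the log2 fold change of -0.02 changed sign to 0.02 with quantile normalization and 0.10 under read-sum scaling. SLC2A1 made up 85.6% and 85.1% of the summed FPKM of the pair in control libraries, against 70.0% and 76.8% after knockdown. The difference between the transporters in response was not tested.

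Enzymes of the upper pathway, from hexokinase to triose phosphate isomerase, had a median log2 fold change of -0.50 over 9 genes. By limma-voom 3 of them, HK1, HK2 and ALDOC, fell, beside 5.8% of all tested genes. At 50 to 100 FPKM, the level of HK2 and ALDOC, 18.6% of other genes were called lower. HK1, the hexokinase of most tissues, stood at 53.3 and 56.6 FPKM in the controls and at 30.2 and 39.3 FPKM in the knockdown libraries (log2 fold change -0.66 ± 0.16, limma-voom adjusted p 0.0275). HK2, the hexokinase induced in growing and hypoxic cells, stood at 71.2 and 83.1 FPKM and then at 45.6 and 53.4 FPKM (log2 fold change -0.63 ± 0.15, limma-voom adjusted p 0.0279). The groups do not overlap for either hexokinase, and both moved by about the same amount, so that HK2 held 57.2% to 60.1% of their summed FPKM in all 4 libraries. ALDOC, an aldolase best known from brain, was at 89.3 and 84.8 FPKM in the controls and at 48.5 and 69.6 FPKM in the knockdown libraries (log2 fold change -0.58 ± 0.19, limma-voom adjusted p 0.0491). Of the 9 alternatives the HK1 call held under 6, that of HK2 under 4 and that of ALDOC under 3. Leaving out control 1, control 2 or knockdown library 1 each ended all of these calls, with adjusted p up to 0.141 for HK1, 0.243 for HK2 and 0.318 for ALDOC. Read-sum scaling and quantile normalization ended those of HK2 (adjusted p 0.0521 and 0.0528) and ALDOC (0.0782 and 0.0851), and a minimum of 20 reads that of ALDOC (0.0521).

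The other 6 upper enzymes did not pass limma-voom. Triose phosphate isomerase, TPI1, was at 453 and 410 FPKM in the controls and 230 and 328 FPKM in the knockdown libraries, with no overlap and an adjusted p of 0.0507. The platelet-type phosphofructokinase PFKP, which catalyses the committed step, was at 70.3 and 69.3 FPKM and then at 43.4 and 55.5 FPKM, with an adjusted p of 0.0509. PFKP supplied 70.7% and 70.4% of phosphofructokinase FPKM in the controls and 67.0% in each knockdown library, while the liver type PFKL, at 28.0 and 27.9 FPKM and then 20.2 and 26.1 FPKM, had a smaller difference (log2 fold change -0.27). Glucose phosphate isomerase, GPI, overlapped between groups at 107 and 109 FPKM against 89.0 and 118 FPKM, and its log2 fold change of -0.08 became 0.27 with quantile normalization and 0.06 under read-sum scaling. The muscle phosphofructokinase PFKM, at 1.11 to 1.28 FPKM in all libraries, also overlapped, with a log2 fold change of -0.01 that became 0.06 under read-sum scaling. ALDOA, the aldolase of muscle and most growing cells, was at only 5.09 and 5.34 FPKM in the controls and 4.21 and 5.90 FPKM in the knockdown libraries, and its log2 fold change of -0.05 became 0.06 under read-sum scaling and 0.10 with the exon length and GC correction. An annotated protein-coding gene on the same strand, AC093512.2, shares 42.3% of the exon bases of ALDOA, and how reads in shared exons were counted is not stated, so the low level of ALDOA is uncertain.

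**Figure D2:**
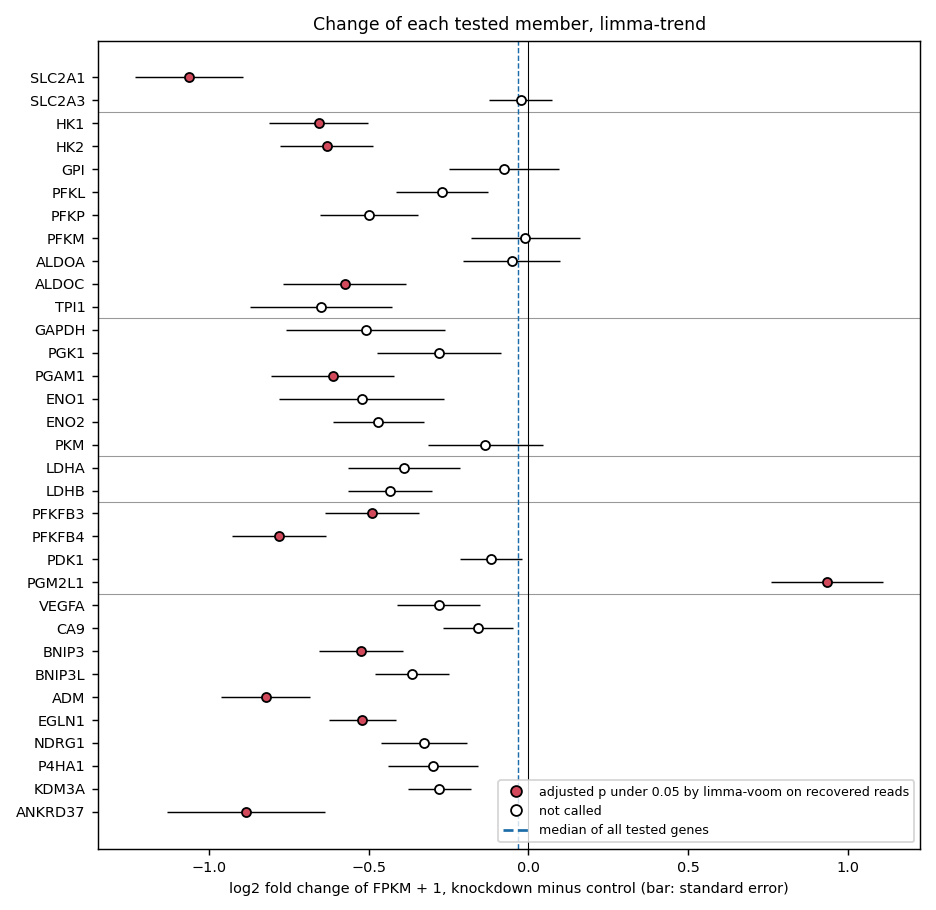
Log2 fold change of FPKM + 1, knockdown minus control, for the 33 tested genes by limma-trend, with bars for the standard error, red points for an adjusted p under 0.05 by limma-voom and a dashed line at the median of all tested genes (-0.03). Points to the left are lower in the knockdown libraries, 11 of the red points lie on that side and PGM2L1 alone lies far to the right.

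The lower enzymes, from glyceraldehyde phosphate dehydrogenase to pyruvate kinase, include GAPDH and ENO1, the most abundant transcripts of the list, and had a median log2 fold change of -0.49 over 6 genes. PGAM1, phosphoglycerate mutase, was the only one of the 6 to fall by limma-voom, beside 5.8% of all tested genes. It went from 378 and 363 FPKM in the controls to 211 and 278 FPKM in the knockdown libraries (log2 fold change -0.61 ± 0.19, limma-voom adjusted p 0.0438). The call held under 3 of the 9 alternatives. It was lost without control 1, control 2 or knockdown library 1 (adjusted p up to 0.419), with a replicate block (0.0739), under read-sum scaling (0.0562) and with quantile normalization (0.0666). GAPDH, often used as a reference gene, was at 1637 and 1527 FPKM in the controls and at 962 and 1283 FPKM in the knockdown libraries. Its groups did not overlap, but the difference between the knockdown libraries was wide and the limma-voom adjusted p was 0.115. The 13 GAPDH pseudogenes in the table held reads equal to 0.359% to 0.437% of those of GAPDH. ENO1, the common enolase, was at 1258 and 1185 FPKM and then at 706 and 1023 FPKM (adjusted p 0.134), and ENO2, the neuronal enolase, at 91.8 and 94.0 FPKM and then at 60.8 and 73.3 FPKM (adjusted p 0.0539), both by limma-voom. ENO1 kept 92.1% to 93.3% of the summed enolase FPKM in all 4 libraries.

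PGK1 and PKM, the enzymes of the ATP-yielding steps, had the smallest differences of the lower pathway. PGK1 was at 420 and 405 FPKM in the controls and 298 and 386 FPKM in the knockdown libraries, and its log2 fold change of -0.28 became 0.16 with quantile normalization. PKM was at 238 and 228 FPKM and then at 187 and 241 FPKM, an overlap, and its log2 fold change of -0.13 became 0.23 with quantile normalization and 0.0029 under read-sum scaling. The lactate dehydrogenases did not pass either test. LDHA, the subunit that favours lactate formation, was at 402 and 368 FPKM and then at 269 and 319 FPKM, with a log2 fold change of -0.39 that became 0.03 with quantile normalization and a limma-voom adjusted p of 0.155. LDHB, the subunit that favours pyruvate formation, was at 17.3 and 13.7 FPKM and then at 11.0 and 11.3 FPKM, with a limma-voom adjusted p of 0.0689. LDHB shares 33.4% of its exon bases with AC010197.2 on the same strand. LDHA supplied 95.9% to 96.6% of the summed FPKM of the 2 subunits in every library.

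Among the 4 regulators and branch enzymes PFKFB3 and PFKFB4 fell by limma-voom, beside 5.8% of all tested genes, and PDK1 did not pass. The PFKFB enzymes make and break down fructose 2,6-bisphosphate, the strongest activator of phosphofructokinase. PFKFB4 (chromosome 3, 48517684 to 48562015, minus strand, hg38) was at 33.8 and 36.1 FPKM in the controls and at 17.5 and 22.6 FPKM in the knockdown libraries. It fell by 42.6% in the mean, with a log2 fold change of -0.78 ± 0.15 and a limma-voom adjusted p of 0.0123, and the call held under all 9 alternatives, with adjusted p up to 0.0474. PFKFB3 was at 36.3 and 39.9 FPKM and then at 23.7 and 30.2 FPKM (log2 fold change -0.49 ± 0.15, limma-voom adjusted p 0.0495), and its call held under 2 of the 9 alternatives and was lost under both other scalings, with a replicate block, with a minimum of 20 reads, and without control 1, control 2 or knockdown library 1 (adjusted p 0.0524 to 0.303). The share of PFKFB4 in their summed FPKM was 48.2% and 47.5% in control libraries, against 42.5% and 42.8% after knockdown. PDK1, the kinase that shuts off pyruvate dehydrogenase and a known HIF target, was at 4.79 and 5.21 FPKM and then at 4.54 and 4.52 FPKM, a small difference without overlap that did not pass (limma-voom adjusted p 0.467).

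PGM2L1, the synthase of glucose 1,6-bisphosphate (chromosome 11, 74330318 to 74398473, minus strand, hg38), was the only one of the 33 genes to rise. It was at 8.49 and 8.89 FPKM in the controls and at 21.0 and 14.6 FPKM in the knockdown libraries, from 1246, 1316, 3417 and 2629 reads. Both knockdown libraries lie above both controls, with knockdown library 1 again the further away, and the mean was 2.05 times that of the controls. The log2 fold change was 0.93 ± 0.18, with adjusted p-values of 0.107 (limma-trend) and 0.00847 (limma-voom), and the limma-voom call held under all 9 alternatives with adjusted p up to 0.0309.

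The hypoxia targets were on the lower side in the knockdown libraries. By limma-voom 4 of them, ADM, ANKRD37, EGLN1 and BNIP3, fell, beside 5.8% of all tested genes. Of 12 genes, 10 were tested, and all 10 had both knockdown libraries below both controls (beside 34.6% of all tested genes), though the difference of P4HA1 changed sign with quantile normalization and that of CA9 with a correction for exon length and GC content. At 10 to 20 FPKM, the range of their median level (14.3 FPKM), 43.7% of other genes were lower without overlap. The median log2 fold change of the hypoxia targets was -0.35, beside an all-gene median of -0.03. Under read-sum scaling it was -0.21, beside an all-gene median of 0.08. ADM, the vasodilator peptide adrenomedullin (chromosome 11, 10304680 to 10307397, plus strand, hg38), was at 4.44 and 5.41 FPKM in the controls and at 2.10 and 2.60 FPKM in the knockdown libraries, from 201, 247, 105 and 145 reads. It fell by 52.3% in the mean (log2 fold change -0.82 ± 0.14, limma-voom adjusted p 0.0182), and of the 9 alternatives only leaving out knockdown library 1 ended the call (adjusted p 0.0935). ANKRD37, an ankyrin repeat protein known as a HIF target (chromosome 4, 185396021 to 185400628, plus strand, hg38), was at 4.33 and 5.06 FPKM and then at 1.39 and 2.97 FPKM, from 186, 219, 66 and 157 reads. It had the largest fall of the hypoxia targets, 53.6% in the mean (log2 fold change -0.88 ± 0.25, limma-voom adjusted p 0.0345), and its knockdown libraries were far apart. The call held under 6 of the 9 alternatives and was lost under read-sum scaling, quantile normalization and without knockdown library 1 (adjusted p 0.0698, 0.058 and 0.143). UFSP2 on the opposite strand shares 35.2% of the exon bases of ANKRD37, and the use of strand in counting is not stated.

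EGLN1, the main oxygen sensor that hydroxylates HIF alpha subunits, was at 19.8 and 21.7 FPKM in the controls and at 13.7 and 14.5 FPKM in the knockdown libraries (log2 fold change -0.52 ± 0.10, limma-voom adjusted p 0.0276). Both knockdown values lie close together and below both controls. EGLN3, a HIF-induced relative, was at 0.669 and 0.599 FPKM and then at 0.420 and 0.451 FPKM and was below the level tested. BNIP3, a mitophagy receptor of the outer mitochondrial membrane, was at 79.0 and 81.8 FPKM and then at 51.5 and 60.1 FPKM (log2 fold change -0.52 ± 0.13, limma-voom adjusted p 0.0373). Its relative BNIP3L was at 77.5 and 77.2 FPKM and then at 58.8 and 60.9 FPKM, and its limma-voom adjusted p of 0.0797 lay above the threshold of 0.05. Like EGLN1, BNIP3L was nearly equal in both knockdown libraries. The call of EGLN1 held under 4 of the 9 alternatives and that of BNIP3 under 3. Both were lost without control 1, control 2 or knockdown library 1 (adjusted p up to 0.232 and 0.363), under read-sum scaling (0.0621 and 0.0592) and with quantile normalization (0.0508 and 0.0735), and that of BNIP3 also with a replicate block (0.0752).

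The remaining hypoxia targets did not pass either test. VEGFA, the growth factor of blood vessels, was at 6.11 and 6.56 FPKM in the controls and 4.42 and 5.72 FPKM in the knockdown libraries. KDM3A, a histone demethylase, was at 11.9 and 13.0 FPKM and then at 10.3 and 9.88 FPKM. NDRG1, a stress-induced gene, was at 25.2 and 24.1 FPKM and then at 17.4 and 21.8 FPKM. Each of these has groups that do not overlap, with log2 fold changes of -0.28, -0.28 and -0.33. P4HA1, a subunit of the collagen prolyl hydroxylase, was at 126 and 124 FPKM and then at 94.0 and 109 FPKM, and its log2 fold change of -0.30 became 0.04 with quantile normalization. CA9, a cell-surface carbonic anhydrase that is widely used as a hypoxia marker, was low at 3.24 and 2.996 FPKM and then 2.63 and 2.75 FPKM, from 81 to 94 reads a library. Its log2 fold change of -0.16 became 0.05 with the exon length and GC correction, and ARHGEF39 on the opposite strand shares 38.5% of its exon bases. P4HA2, the other catalytic subunit of collagen prolyl hydroxylase, had 1, 0, 1 and 0 reads and no fold is given.

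The knockdown libraries were not equally far from the controls. Knockdown library 1 was below knockdown library 2 in 29 of the 33 tested genes, compared with 7640 of all 13172. The median log2 difference from the mean of the controls was -0.60 for knockdown library 1 and -0.30 for the other one, over the 23 transporters, enzymes and regulators. For the hypoxia targets it was -0.46 and -0.32. FYB1 itself had the reverse order, with 6.18 FPKM in knockdown library 1 and 4.53 FPKM in knockdown library 2, so the library with less FYB1 RNA was the one with the smaller difference in the glycolysis genes. In a bulk sample, fewer cells with a high level of a transcript and less of it per cell cannot be told apart.

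Abundance moved with the differences. Among all other tested genes the median log2 fold change went from 0.09 at 1 to 2 FPKM through -0.10 at 10 to 20 FPKM to -0.41 at 200 FPKM and above, and its Spearman correlation across genes with mean FPKM was -0.36 (genes are not independent replicates). At 200 FPKM and above 84.9% of other genes were lower, 14.5% were called lower by limma-voom, and of the 7 glycolysis genes at that level 1 was called. At 100 to 200 FPKM 0 of 2 of the 33 were called beside 25.5% of other genes, at 50 to 100 FPKM 3 of 6 beside 18.6%, and at 20 to 50 FPKM 4 of 6 beside 14.3%. Below that, 1 of 4 were called at 10 to 20 FPKM beside 6.18% of other genes, 0 of 3 at 5 to 10 FPKM beside 4.74%, 2 of 4 at 2 to 5 FPKM beside 1.74% and 0 of 1 at 1 to 2 FPKM beside 0.951%. Read against their level, 27 of the 33 genes lay below the median of other genes in the same range, 18 of 23 transporters, enzymes and regulators and 9 of 10 hypoxia targets. The median distance from that level was -0.17 for the first group and -0.22 for the hypoxia targets. At 200 FPKM and above, where GAPDH, ENO1, PGK1, PGAM1, TPI1, LDHA and PKM lie, 4 of 7 were below the median of their range, and GPI and P4HA1, at 100 to 200 FPKM, were both above it. SLC2A1, HK1, PFKFB4, EGLN1, ADM and ANKRD37 lay below the 10th percentile of their range. Exon length moved with the differences as well (Spearman correlation 0.22 across genes). Other genes of like length, 3093 to 7318 bases, had a median of -0.05. With the exon length and GC correction the median of the 33 genes was -0.39. Other values moved in the same libraries: the summed FPKM of the 12 T cell markers was 1519 and 1412 in control libraries, against 1129 and 1380 after knockdown. Single T cell markers did not share a direction, and CD28 rose. Mitochondrial genes took 4.09% and 4.03% of reads and then 4.92% and 5.14%. Myeloid markers were each under 1 FPKM and summed to 0.380 to 0.749 FPKM. NK and cytotoxic markers summed to 24.7 to 27.5 FPKM, and the 1 erythroid marker in the table, ALAS2, was at 0.0844 to 0.280 FPKM. Epithelial and stromal markers summed to 130 and 115 FPKM in control libraries, against 141 and 144 after knockdown, with VIM and PECAM1 the ones over 1 FPKM and COL1A1, KRT18, EPCAM and KRT8 under it. CD79A, a subunit of the B cell receptor complex that was named after its values were seen, fell from 24.5 and 21.2 FPKM to 11.1 and 15.8 FPKM (limma-voom adjusted p 0.0297). The part of these in the glycolysis result was not tested.

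**Figure D3:**
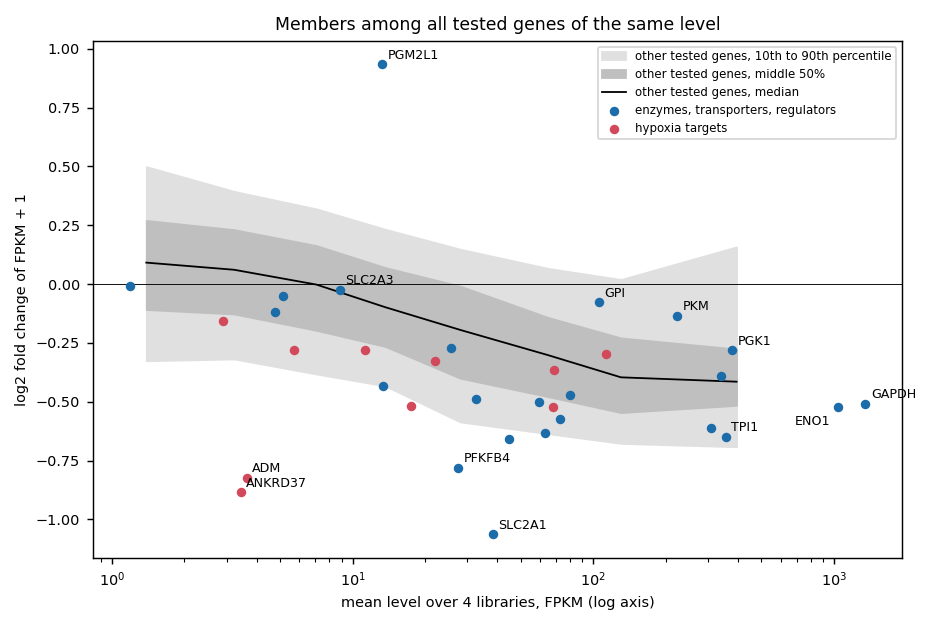
Log2 fold change of FPKM + 1 against the mean level over the 4 libraries (log axis) for the 33 tested genes, with transporters, enzymes and regulators in blue and hypoxia targets in red, over bands for all other tested genes at the same level (black line for the median, dark grey for the middle 50%, light grey for the 10th to 90th percentile). The black line falls as the level rises, SLC2A3 lies close to it, GAPDH and ENO1 lie beyond the right end of the bands, and SLC2A1, PFKFB4, ADM and ANKRD37 lie furthest below the grey bands.

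Further genes of the hypoxia response, from a list of 33 that holds none of the genes above, had mostly lower means. That list was chosen with earlier results of these data known, so it is not independent support. Of these, 29 were in the table and 25 were tested, 20 had a lower and 5 a higher mean (54.3% of all tested genes had a lower one), and 10 fell by limma-voom, beside 5.8% of all genes. That count was 5 under read-sum scaling, beside 1.57% of all genes, and 2 to 14 (beside 0.562% to 19.8%) when single libraries were left out, lowest without knockdown library 1. limma-trend called none of the 25, with 13 at an unadjusted p under 0.05, beside 3088 of all 13172 tested genes. Their median log2 fold change was -0.39 at a median level of 11.9 FPKM. RAB20, a small GTPase of endosomes and phagosomes, was at 11.4 and 10.9 FPKM in the controls and at 3.32 and 4.60 FPKM in the knockdown libraries (log2 fold change -1.30 ± 0.14, limma-voom adjusted p 0.00395). BHLHE40, a transcriptional repressor induced by hypoxia and by T cell activation, was at 15.9 and 17.7 FPKM and then at 6.25 and 7.95 FPKM (log2 fold change -1.14 ± 0.14, limma-voom adjusted p 0.00222). The knockdown levels of these genes lie far below both controls. HILPDA, a lipid droplet protein, was at 21.2 and 23.2 FPKM and then at 11.5 and 14.0 FPKM (limma-voom adjusted p 0.0146), and ANGPTL4, a secreted inhibitor of lipoprotein lipase, at 2.03 and 2.64 FPKM and then at 0.874 and 1.00 FPKM (limma-voom adjusted p 0.0277). The others that fell, named after their values were seen, were TFRC, INSIG2, DDIT4, JMJD6, FAM162A and AK4.

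**Figure D4:**
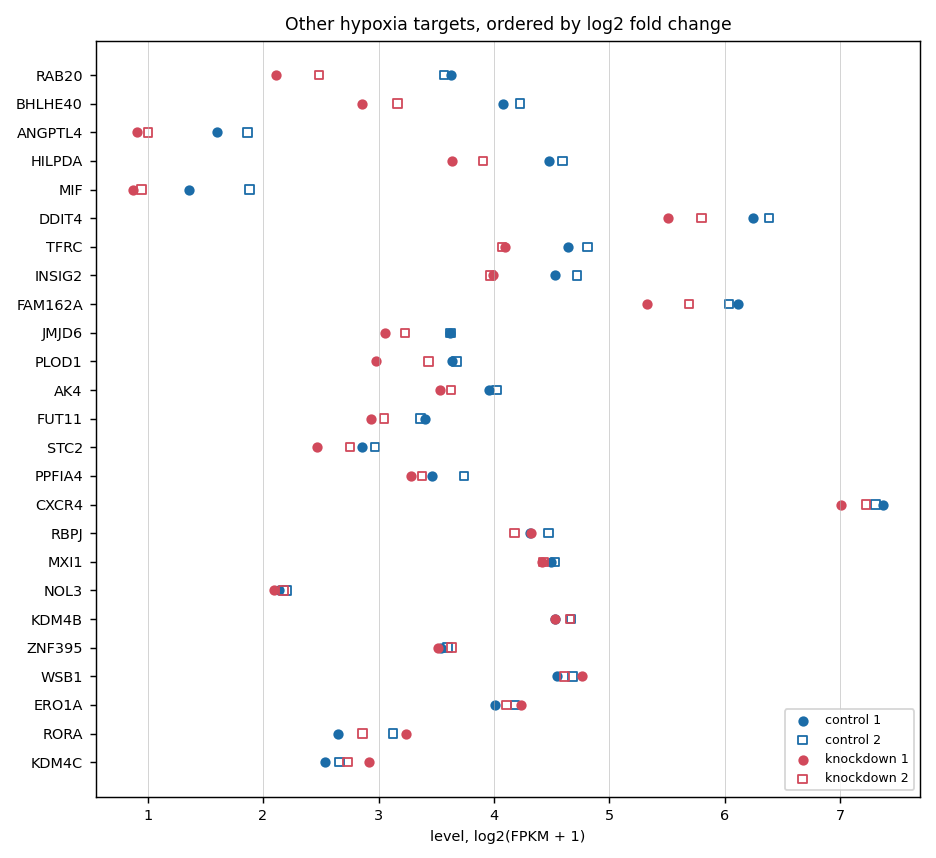
Level of the 25 tested further hypoxia targets in each library as log2(FPKM + 1), ordered from the lowest to the highest log2 fold change, with controls in blue, knockdown libraries in red, filled circles for library 1 and open squares for library 2. Controls lie to the right of knockdown libraries in the upper rows. From RBPJ downward the colours mix, except in MXI1, where both knockdown libraries lie lower, and KDM4C, where both lie higher.

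Transcripts of the oxygen-sensing machinery itself did not share a direction: of 17 tested, 9 had a lower and 8 a higher mean. By limma-voom 1 of the 17 fell, beside 5.8% of all tested genes, and 1 rose, beside 1.94%. HIF1A, the oxygen-regulated subunit whose activity is controlled mainly at the protein level, overlapped between groups at 11.2 and 13.0 FPKM in the controls and 13.3 and 11.4 FPKM in the knockdown libraries (limma-voom adjusted p 0.909; it is named outside the rule for named genes). EPAS1, a second HIF alpha subunit, rose from 1.88 and 2.20 FPKM to 3.19 and 2.96 FPKM (limma-voom adjusted p 0.0437). ELOB, a subunit of the ubiquitin ligase that destroys HIF alpha, fell from 246 and 222 FPKM to 128 and 177 FPKM (limma-voom adjusted p 0.0352). Neither EPAS1 nor ELOB passed limma-trend (adjusted p 0.153 and 0.161). The log2 fold change of ELOB went from -0.63 to -0.21 with quantile normalization. At its level, 100 to 200 FPKM, limma-voom called 25.5% of other genes lower. Among 16 tested glucose sensors and regulators of glycolysis genes, 9 had lower and 7 higher means, and 2 fell by limma-voom, beside the same 5.8%. MYC, a transcription factor that activates glycolysis genes, fell from 42.1 and 37.7 FPKM to 21.7 and 24.4 FPKM (log2 fold change -0.77 ± 0.12, adjusted p 0.00802). RHEB, the activator of mTOR complex 1, fell from 32.0 and 30.2 FPKM to 19.9 and 22.8 FPKM (adjusted p 0.0303). Neither MYC nor RHEB passed limma-trend (adjusted p 0.0938 and 0.123).

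Among the neighbouring branches of sugar metabolism, only the genes of glycogen and hexose phosphates held calls. Of 11 tested genes of glycogen and hexose phosphates, 8 had a lower and 3 a higher mean. In that list 3 of 11 fell by limma-voom, PYGL, MPI and PGM1, beside 5.8% of all tested genes. PGM1, which links glycogen to glycolysis, went from 26.6 and 25.4 FPKM to 15.5 and 19.6 FPKM (adjusted p 0.0324). PYGL, glycogen phosphorylase, went from 2.54 and 2.48 FPKM to 1.25 and 1.48 FPKM (adjusted p 0.0275), and MPI, mannose phosphate isomerase, from 9.65 and 9.24 FPKM to 5.27 and 6.92 FPKM (adjusted p 0.0286). These p-values are from limma-voom, and PGM1, PYGL and MPI did not pass limma-trend (adjusted p 0.135, 0.130 and 0.129). All 9 pentose phosphate genes had a negative log2 fold change (-0.32 to -0.0024). None passed limma-voom or limma-trend (0 at an unadjusted p under 0.05, beside 3088 of all 13172 tested genes). Their median log2 fold change of -0.25 was 0.0019 with quantile normalization. PGD, the second dehydrogenase of that pathway, was at 94.1 and 86.6 FPKM and then at 70.4 and 79.8 FPKM, and TKT, transketolase, at 68.7 and 66.5 FPKM and then at 48.6 and 62.8 FPKM, and both turned to slightly higher values with quantile normalization (0.03 and 0.0019 on the log2 scale). The 12 genes of pyruvate entry into mitochondria had a median log2 fold change of -0.07, the 10 other sugar and lactate transporters -0.05 and the 6 tested other glycolysis enzymes -0.08, each of them near the median of all genes. None of these genes passed limma-voom or limma-trend. At an unadjusted p under 0.05 limma-trend counted 3, 4 and 0 of them, beside the same 3088 of 13172. BSG, the chaperone of lactate transporters, was at 142 and 140.0 FPKM and then at 86.3 and 116 FPKM (adjusted p 0.0709), and its relative EMB at 14.0 and 15.3 FPKM and then at 19.6 and 17.1 FPKM (adjusted p 0.129), both by limma-voom.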

How the data were processed

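Values are FPKM per gene and library, as the authors deposited them. The table names no unit. FPKM was identified because each deposited value times the merged exon length in GENCODE 29 is a multiple of 1 library-specific step (100% of genes, tolerance 0.001). Alignment used HISAT2 2.0.5 to hg38, per the submitters' processing notes. No source used here gives the counting program, its annotation or whether strand was used. The step gave back 17597678 and 17216663 whole reads for controls 1 and 2, and 16693113 and 20251864 for knockdown libraries 1 and 2. In the same order, the authors' totals behind the FPKM are 16648943, 16789004, 18436617 and 20480491. Each control total is smaller than its recovered reads, and each knockdown total is larger, most clearly for knockdown library 1. Compared with read-sum scaling, these totals therefore place knockdown values lower against controls. The reason for the mismatch was not tested. In R 4.3.3, limma-trend (limma 3.58.1) was the main test, on log2(FPKM + 1), a pseudocount of 1, over the 13172 genes averaging 1 FPKM or more. As a second test, limma-voom took the recovered reads, with library sizes set to the authors' totals. Benjamini-Hochberg adjustment ran over all tested genes, and adjusted p-values under 0.05 were called. Both tests were checked on simulated data with the same dispersion for all genes and no mismatch of library totals. That check does not address how the calls depend on scaling or on single libraries. Alternatives were a replicate block, other scalings, filters and pseudocounts, sample weights, each library left out, a correction for exon length and GC content (mgcv 1.9.3) and, added after seeing the data, a crossed block and all alternatives for single genes by limma-voom. ACGTG and GCGTG were searched on both strands of RefSeq promoter windows.

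The 35 genes, the other lists and the tests were chosen with earlier results of these data known. The named genes are FYB1, all 35 genes, up to 4 genes called by limma-voom with the largest log2 fold change in each other list or otherwise the 2 with the highest mean, and the T cell markers CD3D, CD3E, TRAC, CD2 and LCK. The summed level of B cell markers is not reported here.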

Additional observations from a re-analysis of the deposited data

How the results depend on the processing

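With 2 libraries a group the tests have 2 residual degrees of freedom. Counts of calls moved widely, and the cause was not tested. The labels do not say whether equal numbers in the titles pair the libraries. Across genes, deviations of same-numbered libraries correlated at -0.21. With 2 libraries a group that value rests on 1 contrast in each group, so it cannot show or exclude a pairing. With a replicate block limma-trend called 781 genes and 4 of the 33 lower, where it called 27 and 0 without. A crossed block, chosen after seeing the data, gave 1910 genes and 13 of the 33 by limma-trend, and 4007 and 24 by limma-voom. limma-trend called 45 genes with quantile normalization, 76 under read-sum scaling, 181 with a minimum of 5 FPKM (2 of the 33), 0 with no filter and 176 with the exon length and GC correction (1 of the 33). By limma-voom 513 genes (5 of the 33) were called with quantile normalization, and 461 (4 of the 33, and 5 further hypoxia targets) under read-sum scaling. With 1 library left out, where a lone library is assumed to vary like the others, limma-trend called 0 to 406 genes and 0 to 3 of the 33, and limma-voom 102 to 3877 genes, 2 to 23 of the 33 and 2 to 14 further hypoxia targets. The limma-voom counts were lowest without knockdown library 1 and highest without knockdown library 2. The median of transporters, enzymes and regulators was -0.18 with quantile normalization and -0.60 to -0.30 with 1 library left out. That of the hypoxia targets was -0.22 with quantile normalization, -0.21 under read-sum scaling, -0.44 with the length and GC correction and -0.46 to -0.32 with 1 library left out. The all-gene median was 0.0064 with quantile normalization, 0.08 under read-sum scaling and -0.04 with the length and GC correction.

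Log2 fold changes turned sign for these genes. With quantile normalization they were 0.016 for SLC2A3, 0.27 for GPI, 0.16 for PGK1, 0.23 for PKM, 0.034 for LDHA, 0.035 for P4HA1, 0.068 for MPC1, 0.026 for PGD, 0.0019 for TKT and 0.34 for LCK. Under read-sum scaling they were 0.10 for SLC2A3, 0.061 for GPI, 0.065 for PFKM, 0.062 for ALDOA, 0.0029 for PKM, 0.056 for MPC1 and 0.062 for LCK. With the length and GC correction they were 0.10 for ALDOA, 0.049 for CA9 and 0.091 for LCK. With 1 library left out they ran from -0.094 to 0.046 for SLC2A3, -0.27 to 0.12 for GPI, -0.065 to 0.046 for PFKM, -0.25 to 0.15 for ALDOA, -0.32 to 0.047 for PKM, -0.095 to 0.10 for MINPP1 and -0.25 to 0.098 for LCK.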

Other observations

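Genes of the line's T cell identity, given as values only, did not share 1 pattern. CD3D, a subunit of the T cell receptor complex, fell from 478 and 419 FPKM to 224 and 299 FPKM (limma-voom adjusted p 0.0200). CD3E was at 167 and 159 FPKM and then at 110 and 141 FPKM, and CD2, an adhesion receptor, at 3.65 and 3.09 FPKM and then at 1.78 and 2.36 FPKM (limma-voom adjusted p 0.115 and 0.108). TRAC, the constant region of the receptor alpha chain, was at 400 and 373 FPKM and then at 406 and 459 FPKM, and the kinase LCK at 276 and 269 FPKM and then at 229 and 291 FPKM, with neither called. Of the other T cell markers, named after their values were seen, CD28 rose from 6.05 and 5.80 FPKM to 11.4 and 9.60 FPKM (limma-voom adjusted p 0.0121). CD3G and LAT were also higher without overlap, and CD247, CD5, CD7 and ZAP70 lower without overlap, with none of these called by limma-voom.

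The highest-expressed genes of lists with no call are given here for completeness. PGAM5, a mitochondrial phosphatase, was at 21.4 and 21.4 FPKM and then at 15.8 and 21.2 FPKM, and MINPP1, an inositol phosphate phosphatase that also acts on bisphosphoglycerate, at 12.0 and 10.3 FPKM and then at 10.6 and 11.8 FPKM. The subunits of the mitochondrial pyruvate carrier were at 18.7 and 18.5 FPKM and then 17.0 and 18.3 FPKM for MPC1, and at 35.8 and 29.6 FPKM and then 22.6 and 27.9 FPKM for MPC2.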
